A study of Mus musculus with 2 samples.

Results

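The genes described are enzymes of glycolysis, the pyruvate dehydrogenase complex, the tricarboxylic acid (TCA) cycle, its side entries from pyruvate and malate, and the pentose phosphate pathway, measured in mouse primordial germ cells (PGCs) at embryonic day 9.5. They were chosen by symbol from a list of pathway enzymes. The rule itself refers to no measured value, but the list was made with earlier results of these data known. Of 50 listed genes, 48 had a row among the 18877 genes of the expression table. Hk1 and Eno2 were not analysed here. The study compared germ cells made in culture from parthenogenetic embryonic stem cells with PGCs that form in the embryo. Both RNA-seq libraries analysed here are E9.5 PGCs of the C57BL6 strain, isolated with an antibody to the surface antigen SSEA1 and left untreated, and no library of a second condition enters any comparison. The methods describe female embryos and isolation either by magnetic beads against SSEA1 or by sorting of cells positive for SSEA1 and CD61. The titles number the libraries replicate 1 and replicate 2, and the study calls its RNA-seq replicates biological.

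Glycolysis splits glucose into pyruvate in the cytosol and yields a little ATP. The pyruvate dehydrogenase complex then commits pyruvate to acetyl-CoA inside the mitochondrion, where the TCA cycle oxidises it and feeds electrons to the respiratory chain, whereas lactate dehydrogenase instead interconverts pyruvate and lactate. The pentose phosphate pathway branches off at glucose-6-phosphate and provides NADPH for reductive synthesis and ribose for nucleotides. Many of these steps are carried by isozymes, which are products of separate genes that catalyse the same reaction with different kinetics, location or tissue distribution.

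Expression is given as TPM, a relative abundance that divides the reads of a gene by its length and sets every library to one total. Comparisons between genes therefore depend on the length used. The values fitted summed exon length, and some orders of genes changed under other lengths. Reads recovered from the table came to 15918787 in replicate 1 and 5461067 in replicate 2, so replicate 1 was 2.91 times deeper and its values carry the smaller counting error. All 9 listed PGC markers were at 1 TPM or more in both libraries, led by Dppa3 with 5013 and 5075 TPM. Erythroid markers were also abundant. Of 9 listed, 7 had a row, 5 of them at 1 TPM or more in both libraries and none at 0 in both, with a summed level of 3986 and 3766 TPM led by the embryonic globin Hba-x (2331 and 2065 TPM). Markers of muscle (4 of 8 with a row), nerve (4 of 6), endothelium (5 of 6), mesenchyme (5 of 5) and gut endoderm (3 of 5) each summed to between 0.505 and 14.2 TPM, led by Myl7, Pax6, Pecam1, Col3a1 and Afp, and Lum and Foxa1 were at 0 in both. The part of red blood cell RNA in the enzyme levels was not tested. In bulk RNA, fewer cells of a type and less RNA per cell cannot be told apart.

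Most of the enzymes were expressed in both libraries. A level of at least 1 TPM in both was reached by 44 of 48 members, where 60% of all genes in the table and 69.5% of its protein-coding genes reached it. At least 10 TPM was reached by 31 members (25.3% of all genes, 29.4% of protein-coding genes) and at least 100 TPM by 5 (6.1% of all genes, 6.64% of protein-coding genes). The median of the members was 4.25 ± 0.167 on the log2(TPM + 1) scale (SD, n = 2 libraries), beside 1.87 ± 0.0282 for all genes and 2.25 ± 0.0528 for protein-coding genes. The members were listed with earlier results of these data known, so these comparisons describe the listed genes and not the pathways. Of 36 other genes of the pathways with a row, 24 reached 1 TPM and 12 reached 10 TPM in both libraries, with a median of 2.25. By pathway, medians on that scale were 5.36 ± 0.0254 for 15 TCA cycle genes, 5.27 ± 0.136 for 6 genes of the pyruvate dehydrogenase complex and its kinases, 4.12 ± 0.132 for 16 glycolytic genes, 2.14 ± 0.0480 for 7 pentose phosphate genes and 1.84 ± 0.0361 for 4 genes of the side entries. The first 2 medians were less than 1 SD apart. The first 3 medians were above the last 2 in each library. The TCA cycle list includes genes of cytosolic enzymes (Aco1, Idh1 and Mdh1), so its median is not that of the mitochondrial cycle alone. Genes are not replicates, so no p-value was computed across them. Together the 48 genes held 0.231% of all TPM in replicate 1 and 0.219% in replicate 2.

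**Figure D1:**
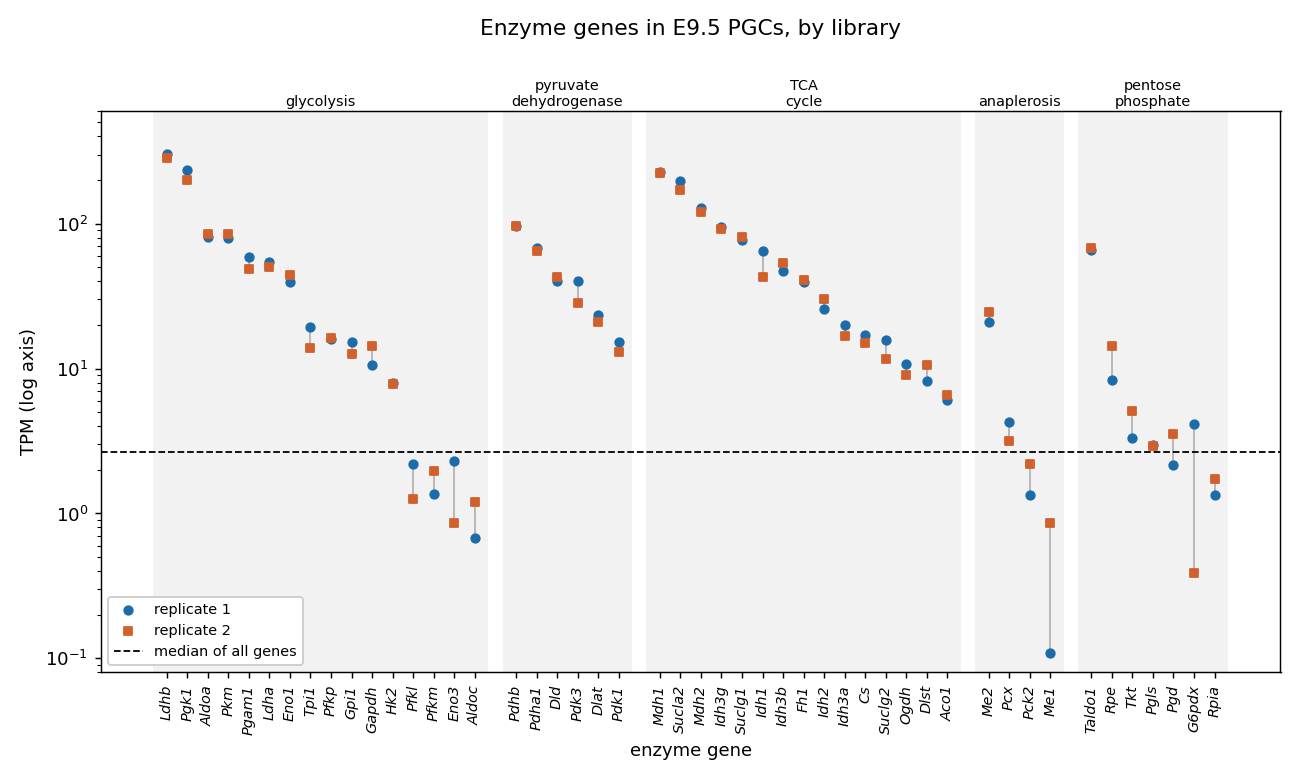
Level of each enzyme gene (TPM, log axis) in replicate 1 (circles) and replicate 2 (squares), grouped by pathway and ordered by mean, with the libraries joined by a line and the median of all genes dashed. All 15 TCA cycle genes lie above the dashed line, whereas most pentose phosphate genes lie near it.

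The highest member was Ldhb, with 300.4 and 284 TPM in replicates 1 and 2, rank 573 of all genes by mean. It was followed by Mdh1 (229 and 222), Pgk1 (235 and 201), Sucla2 (196 and 172) and Mdh2 (129 and 120). Mdh1 and Pgk1 did not differ beyond their replicate spread, and the values of the other neighbours in this order did not overlap. The 5 lowest members were Me1, Aldoc, Rpia, Eno3 and Pfkm, each with a mean under 2 TPM.

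The glycolytic steps up to phosphofructokinase, the first and last of which consume ATP, were at modest levels in the genes analysed. The hexokinase step rests on Hk2, since Hk1 was not analysed. Hk2, a hexokinase that traps glucose as glucose-6-phosphate, had 7.98 and 7.77 TPM. Gpi1, which converts glucose-6-phosphate to fructose-6-phosphate, had 15.3 and 12.7 TPM. Phosphofructokinase, the committed step of glycolysis, was represented mainly by the platelet-type gene Pfkp with 15.9 and 16.3 TPM. The liver-type gene Pfkl had 2.19 and 1.25 TPM, and the muscle-type gene Pfkm had 1.35 and 1.97 TPM. Pfkp therefore held 82.6% ± 1.19 (SD, n = 2) of the summed phosphofructokinase TPM. The order of the minor isozymes was not stable: Pfkl over Pfkm was 1.62 in replicate 1 (exact 95% interval 1.14 to 2.33) and 0.637 in replicate 2 (0.351 to 1.17), while in reads not divided by length Pfkl was higher in both (3.23 and 1.27). Such intervals rest on recovered reads and cover counting error only.

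Aldolase splits fructose-1,6-bisphosphate into triose phosphates. The listed genes were led by Aldoa, with 80.9 and 84.3 TPM. The brain-type gene Aldoc had 0.677 and 1.19 TPM from 21 and 13 reads. Aldoa held 98.9% ± 0.399 of the TPM of the listed pair. Tpi1, which interconverts the triose phosphates, had 19.3 and 13.8 TPM, and its counting intervals in the libraries did not overlap (17.6 to 21.1 against 11.5 to 16.4).

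In the lower, ATP-yielding steps, Gapdh stood out by its low level. Gapdh, glyceraldehyde-3-phosphate dehydrogenase, had 10.6 and 14.3 TPM from 415 and 198 reads over 4133 exonic bases. The next enzyme, phosphoglycerate kinase (Pgk1), had 235 and 201 TPM. Gapdh has many processed pseudogenes, which are copies of its spliced transcript inserted elsewhere in the genome. Of its distinct 50-base transcript windows, 25.1% were found in transcripts of other genes, and 85 annotated pseudogenes shared at least 100 windows with it. This percentage counts windows of all annotated transcripts, whereas the coding part is repeated in full in Gm7336, identical over 999 bases. The reads of Gapdh are therefore uncertain. Only 15 of the 85 had a row, and these 15 summed to 193 and 208 TPM, far above Gapdh itself.

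Nearly all of that pseudogene signal was in 1 locus, Gm5559, a single-exon processed pseudogene on the + strand at chr5:95861714-95862715 (GRCm38). It had 168 and 184 TPM, from 1604 and 616 reads over 1002 bases. Gm5559 over Gapdh was 15.9 (14.3 to 17.8) per length in replicate 1 and 12.8 (10.9 to 15.1) in replicate 2, and 3.87 and 3.11 in reads not divided by length. Gm5559 differed from the coding part of Gapdh at 1 of 999 bases. The 30-base windows that end at this base are shown because it is the only coding base that separates the copies. The Gapdh window is on the - strand of chr6:125162977-125163006, in exon 4 of 7, and the Gm5559 window is at chr5:95862069-95862098. The capital marks the differing base.
Gapdh: tctccgccccttctgccgatgcccccatgt
Gm5559: tctccgccccttctgccgatgcccccatgA

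The pseudogene levels did not follow likeness to Gapdh alone. Gm12033, Gm12070, Gm12537, Gm2606 and Gm13394 also differed from the coding part at 1 aligned base. The first 4 had at most 20 reads in either library, and Gm13394 had 16.4 and 13.8 TPM. Gm7336, on chromosome 7, was identical to the coding part over all 999 bases and had 2.22 and 3.16 TPM. Whether reads counted for Gm5559 were transcribed from that locus or from Gapdh was not tested, since how reads with several matches were assigned is not stated. The sperm-specific isozyme gene Gapdhs had 0 reads in replicate 1, with an interval of 0 to 0.241 TPM, and 5 reads in replicate 2.

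**Figure D2:**
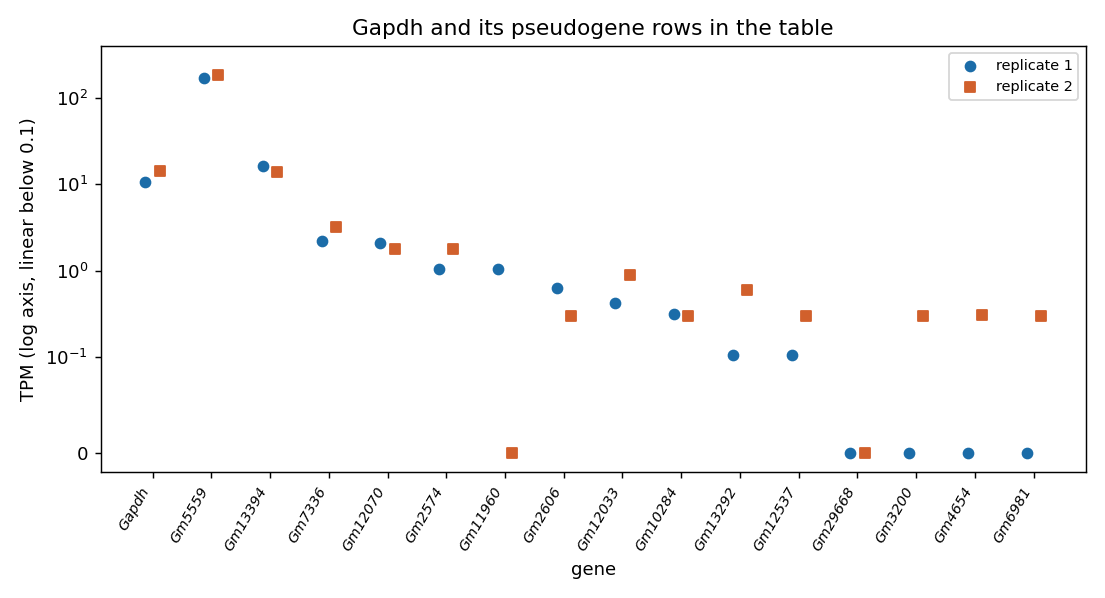
TPM (log axis, linear below 0.1) of Gapdh and of the 15 pseudogenes with a row that share at least 100 windows with it, in replicate 1 (circles) and replicate 2 (squares). Gm5559 reaches 168 and 184 TPM, above Gapdh at 10.6 and 14.3, and the other copies are at or below 16.4 TPM.

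The leading gene of each step after Gapdh was at a higher level. Pgk1 and Pgam1, a phosphoglycerate mutase, had means of 218 ± 23.8 and 54.1 ± 7.23 TPM. The muscle-type mutase gene Pgam2 had 15 reads in replicate 1 and 0 in replicate 2. The main enolase gene Eno1 had 39.8 and 44.3 TPM, against 2.30 and 0.860 TPM for the muscle enolase gene Eno3, the latter from 38 and 5 reads. Eno1 held 96.3% ± 2.52 of that pair. This share dropped to 55.9% when other enolase rows were included, because Eno1b had 30.8 and 31.2 TPM. Eno1b is a near copy of Eno1: 85.2% of its windows occurred in transcripts of other genes, so its reads and those of Eno1 are uncertain. Eno4 was low, with 0.287 and 0.698 TPM. Pkm, pyruvate kinase, which makes pyruvate and ATP, had 79.5 and 84.2 TPM. Its alternative forms M1 and M2 share the gene row and were not separated.

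Lactate dehydrogenase was dominated by Ldhb, the heart-type subunit, rather than Ldha, the muscle-type subunit usually linked to lactate production. Ldhb had 300.4 and 284 TPM and Ldha 54.8 and 50.4 TPM, so both Ldhb values were above both Ldha values. Ldhb over Ldha was 5.48 (5.18 to 5.80) in replicate 1 and 5.64 (5.11 to 6.23) in replicate 2, and Ldhb held 84.8% ± 0.266 of the pair. The direction was the same but the ratio smaller without division by length (2.60 and 2.68) and with the longest coding transcript as the length (3.62 and 3.72). Ldhc, the testis-type subunit, had 11.3 and 6.63 TPM, and Ldhb held 82.6% of all listed subunits when it was added.

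A copy of Ldhb also had a high level. Its processed pseudogene Gm5514, at chr19:21937380-21938381 on the + strand, had 147 and 153 TPM, above Ldha and below Ldhb. Ldhb over Gm5514 was 2.05 and 1.85. The pseudogene differed from the Ldhb coding part at 20 of 1002 bases (98.0% identical), whereas Ldha and Ldhb were 71.7% identical over 996 aligned bases. Short windows from the start of the coding part, all beginning at coding base 13, are shown because they set the near copy beside the second subunit gene. Among ungapped windows within a single exon, they were picked for the most differences between Ldhb and Gm5514. This pair is therefore at least as alike in every other window searched. The windows shown lie at chr6:142505499-142505528 on the - strand (Ldhb, exon 2 of 8), chr19:21937392-21937421 on the + strand (Gm5514) and chr7:46847632-46847661 on the + strand (Ldha, exon 2 of 8). Capitals mark bases that differ from Ldhb.
Ldhb: aaggagaagctcattgcgtccgttgcagat
Gm5514: aaggagaagctcattgcAtcAgttgcagaA
Ldha: aaggaCCagctGattgTgAATCttCTTAaG

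Of 30 bases, 3 differed in Gm5514 and 13 in Ldha. Among Ldhb windows of 50 bases, 20.99% occurred in another gene, and Gm5514 was the only such gene. No pseudogene sharing at least 100 windows with Ldha had a row. Whether reads of Ldhb and Gm5514 were exchanged was not tested.

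**Figure D3:**
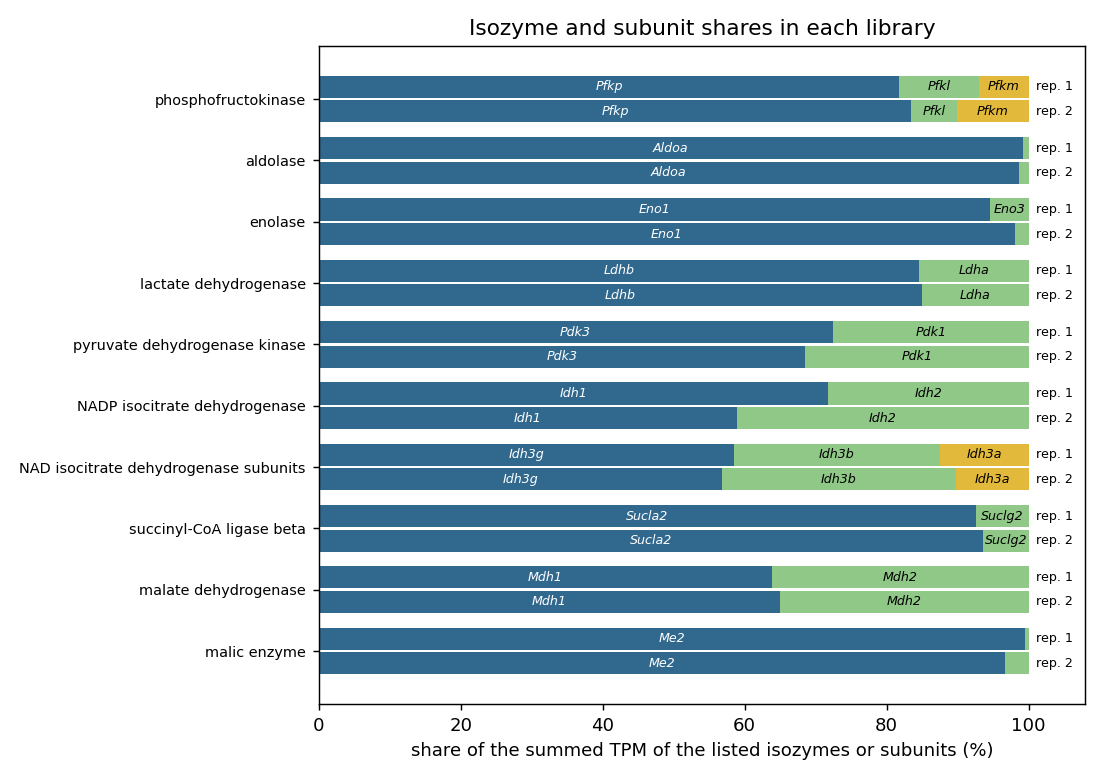
Share of the summed TPM (%) held by each listed isozyme or subunit, as 1 bar for each library in each of 10 families. Aldoa, Me2, Eno1, Sucla2, Ldhb and Pfkp hold over 80% of their families in both libraries, and the Idh1 share falls from 71.8% to 58.9% between replicates 1 and 2.

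All 6 listed genes of the pyruvate dehydrogenase complex and its kinases were at 10 TPM or more in both libraries. Pdhb, the beta subunit of its first enzyme, had 96.5 TPM in each, and Pdha1, the X-linked alpha subunit, had 68.1 and 64.4 TPM. The testis-type alpha subunit Pdha2 had 2.28 and 3.31 TPM, so Pdha1 was 29.8 and 19.5 times higher (47.4 and 30.9 in reads not divided by length). Pdha1 overlaps Map3k15 on the opposite strand over 12.5% of its windows with Map3k15 at 41.5 and 41.9 TPM, and the sources do not say if strand was used in counting. Dld, the dihydrolipoamide dehydrogenase shared with the oxoglutarate dehydrogenase complex, had 40.1 and 43.04 TPM, and Dlat, the acetyltransferase core, had 23.4 and 20.9 TPM. The kinases that switch the complex off were led by Pdk3, with 40.2 and 28.5 TPM, followed by Pdk1 with 15.3 and 13.1 TPM. Pdk3 held 70.4% ± 2.76 of that pair per exonic length and 65.8% with the longest coding transcript as the length. It held 44.0% when reads were not divided by length, so its lead depends on that division. Pdk2 was lower still (3.76 and 3.50 TPM), and Pdk4 had 4 and 8 reads.

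The 15 TCA cycle genes ranged from 6.29 to 226 TPM by mean, and 12 of them had at least 10 TPM in both libraries. Both ends of this range, Aco1 and Mdh1, are genes of cytosolic enzymes, as is Idh1. Citrate synthase (Cs), which condenses acetyl-CoA with oxaloacetate, had 17.1 and 14.96 TPM. Aco1, the cytosolic aconitase that doubles as an iron-responsive RNA-binding protein, was the lowest of the list with 6.06 and 6.52 TPM.

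Isocitrate dehydrogenase is present in NAD-dependent and NADP-dependent forms. The NADP-dependent cytosolic gene Idh1 had 65.1 and 43.2 TPM, and the mitochondrial gene Idh2 had 25.6 and 30.2 TPM. Idh1 was the higher of the pair in both libraries, but its share of 65.3% ± 9.13 had the widest replicate spread of any family, and its own counting intervals did not overlap (62.1 to 68.3 against 39.1 to 47.6). The 3 subunits of the NAD-dependent enzyme were unequal in the same order in both libraries. The regulatory subunit genes Idh3g (94.2 and 92.6 TPM) and Idh3b (46.8 and 53.7 TPM) exceeded the catalytic subunit gene Idh3a (20.1 and 16.8 TPM).

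For the oxoglutarate dehydrogenase complex, Ogdh had 10.7 and 8.99 TPM and the succinyltransferase Dlst had 8.25 and 10.6 TPM, with ratios of Ogdh to Dlst of 1.30 and 0.848. Per exonic length the order differed between the libraries, whereas Dlst was the higher in both in reads not divided by length (0.743 and 0.484) and with coding transcript length (0.497 and 0.324). Succinyl-CoA ligase, which makes a nucleotide triphosphate directly, was strongly weighted to its ATP-forming beta subunit. Sucla2 had 196 and 172 TPM, against 15.7 and 11.7 TPM for the GTP-forming subunit gene Suclg2. Sucla2 over Suclg2 was 12.5 (11.5 to 13.5) and 14.6 (12.6 to 17.1), and Sucla2 held 93.1% ± 0.726 of the pair. The shared alpha subunit gene Suclg1 lay between them with 77.7 and 80.3 TPM, below the Sucla2 value and above the Suclg2 value in each library.

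Fumarase (Fh1) had 39.5 and 40.6 TPM. Malate dehydrogenase was abundant in both compartments, with the cytosolic gene Mdh1 at 229 and 222 TPM and the mitochondrial gene Mdh2 at 129 and 120 TPM. Mdh1 held 64.4% ± 0.744 of the pair per exonic length, but 47.2% with the longest coding transcript as the length, which reverses the order.

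The side entries into the cycle were low apart from 1 gene. Pyruvate carboxylase (Pcx), which refills oxaloacetate, had 4.29 and 3.16 TPM, and the mitochondrial phosphoenolpyruvate carboxykinase gene Pck2 had 1.33 and 2.18 TPM. The mitochondrial malic enzyme gene Me2 had 20.9 and 24.6 TPM. The cytosolic NADP-dependent malic enzyme gene Me1 had 0.109 and 0.855 TPM, from 4 and 11 reads. Me2 held 98.1% ± 2.01 of the pair.

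In the pentose phosphate pathway, transaldolase was set apart from every other gene. Taldo1 had 66.1 and 67.6 TPM, while the other 6 genes had means between 1.53 and 11.3 TPM. Transketolase (Tkt), its partner in the non-oxidative branch, had 3.32 and 5.12 TPM, so Taldo1 was 19.9 (17.3 to 23.0) and 13.2 (10.8 to 16.2) times higher per exonic length, and 5.88 and 3.90 times higher in reads not divided by length. The related genes Tktl1 and Tktl2 had at most 11 reads. Rpe, the ribulose-phosphate epimerase, had 8.28 and 14.3 TPM, and Rpia, the isomerase that makes ribose-5-phosphate, had 1.33 and 1.73 TPM. Rpe overlaps Kansl1l on the opposite strand over 15.4% of its windows.

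All 3 genes of the oxidative branch, which makes NADPH, were below 5 TPM in both libraries. Pgls, the lactonase, had 2.96 and 2.94 TPM, and it shares 18.9% of its windows with Fam129c on the same strand. Pgd, 6-phosphogluconate dehydrogenase, had 2.15 and 3.53 TPM. G6pdx, the X-linked glucose-6-phosphate dehydrogenase that opens the pathway, had 4.17 TPM in the deeper library but 0.388 TPM in replicate 2. The difference in G6pdx was between 122 reads and 4 reads, with intervals of 3.46 to 4.98 and 0.106 to 0.995 TPM. G6pdx overlaps the gene Ikbkg on the opposite strand over 10.6% of its windows, and Ikbkg had 1.26 and 1.70 TPM.

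Agreement between the libraries was compared gene by gene. On log2(TPM + 1), 0 members were over 2-fold higher in replicate 2 (4.31% of all genes) and 1 member, G6pdx, was over 2-fold lower (5.89% of all genes). In either direction the count was 1, against 10.2% of all genes. With 1 library on each side, these differences describe the libraries and carry no test. The median difference of the members was -0.02 log2 units, against -0.01 for all genes. Exact 95% Poisson intervals, which cover counting error only, did not overlap between libraries for 17 of 45 members (37.8%). Of all genes tested, 26.1% behaved so. Members were more often at 10 TPM or more in both libraries (64.6%, against 25.3% of all genes). Intervals are relatively narrower with more reads, so these shares are not like for like. What lies behind the differences was not tested. Of the 17 members, 8 were higher and 9 lower in replicate 2. Among pentose phosphate genes 5 of 7 values were higher in replicate 2, with Rpe (0.72 log2 units) and Pgd (0.52) the furthest, and among glycolytic genes 7 of 16 were higher. Over all genes, 7715 of 18877 were higher and 9688 lower, so the glycolytic count was near that of the table.

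**Figure D4:**
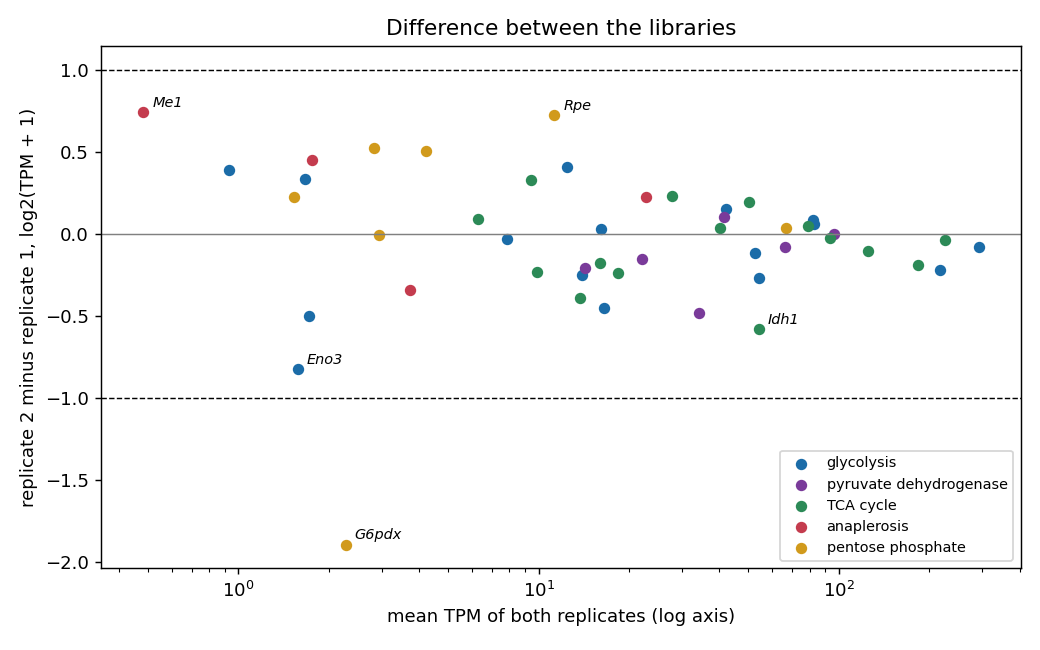
Difference of each member between the libraries (replicate 2 minus replicate 1, log2(TPM + 1)) against its mean TPM (log axis), coloured by pathway, with dashed lines at a 2-fold difference. Only G6pdx, at -1.90, lies outside the lines, and of the members with a mean above 50 TPM, Idh1 lies furthest from 0, at -0.58.

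Several members share sequence with other genes. At least 10% of the 50-base windows were found in another gene for 14 of 48 members (29.2%). The share over all genes was 32%, so members were near the table in this. Besides Gapdh and Ldhb these included Pgk1 (53.9%), Pgam1 (36.2%), Eno1 (26.0%) and Pkm (25.8%). The pseudogenes of Pgk1, Pgam1 and Pkm with a row were at low levels: Pgk1-rs7 had 2.35 and 1.19 TPM, and Pgam1-ps2 had 2.34 and 3.52 TPM. For Eno1, the pseudogene Gm4735 was higher, with 13.3 and 13.6 TPM. Apart from copies of Gapdh, Ldhb and Eno1, no pseudogene row sharing at least 100 windows with a member exceeded 3.52 TPM in either library.

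Other genes of the same pathways were counted from a second list. Of 51 such genes, 36 had a row, and 24 of these were at 1 TPM or more in both libraries and 12 at 10 TPM or more, close to the protein-coding shares of 69.5% and 29.4%, with a median of 2.25 ± 0.2001 on the log2(TPM + 1) scale. The 3 highest by mean were Sdhb, the iron-sulphur subunit of succinate dehydrogenase (535 and 502 TPM), Mpc1, a subunit of the mitochondrial pyruvate carrier (322 and 324 TPM), and Sdha, the catalytic subunit of succinate dehydrogenase (82.7 and 78.4 TPM). Sdha did not differ beyond replicate spread from the next gene, the lactate and pyruvate transporter Slc16a1 (78.7 and 81.6 TPM). The processed pseudogene Mpc1-ps, which shares 240 windows with Mpc1, had 1419 and 1426 TPM. These came from 4451 and 1573 reads, fewer than the 6377 and 2253 reads of Mpc1. The gene 4930506C21Rik, which shares 332 windows with Mpc1, had 290 and 292 TPM. The Mpc1 level is therefore uncertain.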

How the data were processed

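The authors deposited 1 table of TPM for 2 E9.5 PGC libraries. Their methods name Hisat2 alignment to mm10 and featureCounts, and the submitters' processing notes also list RSEM, Bowtie2, DESeq2 and R 3.4.2. The annotation used, the use of strand and the handling of reads with several matches are not given in the sources used here. The methods describe Smart-seq2, whereas the labels name another library kit, and 0 columns of other samples were present. TPM is relative, so abundant genes lower all others.

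Symbols were matched to GENCODE M21 (GRCm38) for 18774 of 18877 genes. TPM multiplied by summed exon length gave whole multiples of 1 read: 96.7% and 95.8% of values under 50 reads were within 0.02 of a whole number. On chromosomes 16 to 19 only 70.6% and 66.1% were, against 99.8% and 99.8% elsewhere, so reads of Pgam1, Pcx, Me2, Gm5514 and Eno1b were not used for intervals, and alternatives in reads for Me2 and Eno1b are approximate. Aldoa has 2 records, and the one giving whole reads was taken. On simulated data for 18774 genes, 100% of reads were recovered in each library. The simulation used the same lengths for making and recovering the reads, so it cannot show whether those lengths are right. Depth was 15918787 and 5461067 reads. Exact Poisson intervals, and Clopper-Pearson intervals for ratios, are at 95% and cover counting error only. For a count of 0 the interval starts at 0 and ends above it.

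Values were analysed as log2(TPM + 1), which understates differences of low genes. With 1 group no test was possible. Repeated sequence was counted as distinct 50-base windows of all transcripts of a gene, searched on both strands in transcripts of other M21 genes. A search of the genome was planned but not run. Members and lists were chosen with earlier results of these data known. The rule for named genes covered every member, other isozymes of the same families, the 3 highest other pathway genes and the highest marker of each list. Values of some single genes under this rule are not reported here. Pseudogenes and overlapping genes were named after their values were seen. The alternatives were other pseudocounts, detection thresholds, scalings, lengths, window sizes and leaving out each replicate. Coding transcript length, Poisson intervals, thinned reads and the protein-coding background were added after seeing the data. Python 3.11.15, numpy 2.4.6, pandas 2.3.3, scipy 1.17.1, biopython 1.88 and matplotlib 3.10.9 were used.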

Additional observations from a re-analysis of the deposited data

How the results depend on the processing

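Of 89 alternative values for 20 results, 60 stayed within the replicate spread or within 1.5 times the count, 27 moved and 2 reversed. For pathway medians and isozyme shares, leaving out a replicate could not count as moved, because the spread comes from the same 2 values. Those values among the 60 therefore say nothing about stability. The reversals were Pdk3 at 44.0% of its pair in reads not divided by length, and Mdh1 at 47.2% of its pair with the longest coding transcript as length. In reads not divided by length the shares moved to 92.7% for Pfkp, 72.5% for Ldhb, 48.7% for Idh3g, 92.1% for Sucla2 and 56.6% for Mdh1, and with coding transcript length to 91.2% for Pfkp, 99.3% for Aldoa, 78.6% for Ldhb, 65.8% for Pdk3 and 94.6% for Sucla2. With the other isozymes included they moved to 55.9% for Eno1, 82.6% for Ldhb and 65.0% for Pdk3. Rescaling without short and mitochondrial genes shifted the median of all genes by 0.25 log2 units, and pathway medians rose with it to 4.43 (glycolysis), 5.59 (pyruvate dehydrogenase), 5.68 (TCA cycle), 2.08 (side entries) and 2.40 (pentose phosphate). A pseudocount of 0.1 gave medians of 5.33 for the TCA cycle, 1.39 for the side entries and 1.82 for the pentose phosphate pathway, and a mean of at least 1 TPM gave 2.23 for the side entries. Members over 2-fold higher and lower in replicate 2 numbered 1 and 2 with a pseudocount of 0.1, and 8 and 9 had Poisson intervals apart. With windows of 100 bases, 8 of 48 members shared at least 10% of them, against 23.3% of all genes. The median difference between libraries turned from -0.02 to 0.02 when they were scaled by the median ratio. Leaving out replicate 1 or 2 gave 45 and 46 detected members, and the widest range of a share was 58.9% to 71.8% for Idh1. Shares over all genes are not given for single replicates or for the pseudocount of 0.1, so those counts of members have no background. No paired analysis was possible because there is 1 group. The depth of replicate 2 limits what can be said of members with few reads, such as G6pdx, Me1 and Eno3.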

Other observations

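Some pathway genes outside the naming rule were looked up after their values were seen. Ogdhl, a relative of Ogdh known mainly from brain, had 44.0 and 48.4 TPM, compared with 10.7 and 8.99 TPM for Ogdh. Ogdhl over Ogdh was 4.09 (exact 95% interval 3.72 to 4.51) in replicate 1 and 5.38 (4.53 to 6.42) in replicate 2, and it exceeded 3 also in reads not divided by length (3.11 and 4.09). The pair of subunits of the mitochondrial pyruvate carrier was unequal, with 322 and 324 TPM for Mpc1 against 9.47 and 7.94 TPM for Mpc2. Mpc1 over Mpc2 was 34.0 and 40.8 per exonic length but 9.65 and 11.6 in reads not divided by length. Of the Mpc1 windows, 26.3% occurred in other genes, among them 4930506C21Rik at 290 and 292 TPM and Mpc1-ps at 1419 and 1426 TPM. Whether reads were exchanged between these rows was not tested.

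Transporters at the ends of the pathway differed in level. The monocarboxylate transporter gene Slc16a1, which carries lactate and pyruvate across the plasma membrane, had 78.7 and 81.6 TPM. The glucose transporter genes Slc2a1 (7.11 and 11.3 TPM) and Slc2a3 (8.22 and 10.1 TPM) were lower. Slc2a1 over Slc2a3 was 0.865 and 1.12 per exonic length, but Slc2a3 was the higher in both libraries in reads not divided by length (0.419 and 0.541) and with coding transcript length (0.509 and 0.657). Tigar, a phosphatase that lowers fructose-2,6-bisphosphate, had 18.6 and 18.2 TPM, and the gluconeogenic gene Fbp1 had 1.05 TPM from 17 reads in replicate 1 and 5.10 TPM from 29 reads in the shallower replicate 2, with intervals that did not overlap.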
